A study of Mus musculus with 24 samples.

Results

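Expression of 10 genes of the NRF2 antioxidant pathway was followed in mouse liver: Nfe2l2, which encodes NRF2 itself, its inhibitor gene Keap1, and 8 genes known as NRF2 targets, Gclc, Gclm, Gsr, Txnrd1, Srxn1, Nqo1, Hmox1 and Ephx1. They were picked by gene symbol, as 10 of 37325 symbols on the array and 10 of the 21495 genes tested. The 10 symbols had 13 probes, and each gene is described by its probe with the highest mean signal, with the second probes of Nfe2l2 and Txnrd1 as a check. A second Hmox1 probe was well above background on 1 of 24 arrays and was not tested. The study asked how the livers of LWT and LKO mice respond to feeding and fasting. LWT mice were Cre-negative littermates carrying floxed Pik3ca alleles, and LKO mice carried the same floxed alleles with Cre expressed from the albumin promoter, so that hepatocytes lose part of the gene. The protein made from Pik3ca, p110α, is a catalytic subunit of the phosphoinositide 3-kinase that relays insulin signals. All mice were males of 12 weeks, killed at zeitgeber time 16, either fed freely until then or fasted for the 24 h before it, which gave 4 groups of 6 mice (LWT_Fed, LWT_Fasted, LKO_Fed and LKO_Fasted) with 1 array per mouse.

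NRF2 is a transcription factor that KEAP1, an adaptor of the CUL3 ubiquitin ligase, marks for degradation. When reactive cysteines of KEAP1 are modified by electrophiles or oxidants, NRF2 escapes degradation, pairs with a small MAF protein and binds antioxidant response elements near its target genes. In hepatocytes its targets make and recycle glutathione, reduce thioredoxin and oxidised peroxiredoxins, and detoxify quinones, epoxides and heme. Because NRF2 is controlled mainly at the level of the protein, the mRNA of Nfe2l2 is not a measure of its activity.

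Per array, 54.7% to 63.0% of probes were well above background. The weights that the fit gave the arrays were uneven, from 0.315 for LWT_Fed replicate 3 and 0.353 for LKO_Fasted replicate 4 to 1.86 for LWT_Fed replicate 1. The labelled tissue carried the markers of hepatocytes, with Alb, which encodes albumin, at a log2 normalized signal of 18.98 ± 0.02 (SD, n = 6) in the LWT_Fed group. The tested Pik3ca probe was not lower in the arrays labelled LKO than in those labelled LWT: the log2 difference was 0.58 in fed mice and -0.02 in fasted mice. Where that probe lies relative to the removed exons was not examined, so it does not check the labels. LKO_Fasted replicates 1 and 2 stood apart from the other 4 arrays of their group on the second principal component, at 35.1 and 31.2 against 1.41 to 2.92. The calls of the genes that rose in LKO mice, given below, were also made without these 2 arrays.

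The promoter windows of 7 of the 10 genes were in the RefSeq table for GRCm38.p6, with Gclc, Hmox1 and Gsr unmatched. Each window runs from 250 bases before the annotated start to 50 after it. Both strands were searched for TGACNNNGC, the core of the antioxidant response element, which was present in 4071 of all 32851 windows of this length (12.4%). One window each of Nfe2l2, Gclm, Txnrd1 and Srxn1 held it, and those of Keap1, Nqo1 and Ephx1 did not. Txnrd1 had 3 windows, of which 1 held it. The 4 windows with a match are shown 5′ to 3′ on the strand of the gene, because they cover Srxn1 and Txnrd1, which rose in fasted LKO mice, beside Gclm, which was not called, and Nfe2l2, whose probes differed. The match is in capitals.
Srxn1 (chr2:152105274-152105573, plus strand): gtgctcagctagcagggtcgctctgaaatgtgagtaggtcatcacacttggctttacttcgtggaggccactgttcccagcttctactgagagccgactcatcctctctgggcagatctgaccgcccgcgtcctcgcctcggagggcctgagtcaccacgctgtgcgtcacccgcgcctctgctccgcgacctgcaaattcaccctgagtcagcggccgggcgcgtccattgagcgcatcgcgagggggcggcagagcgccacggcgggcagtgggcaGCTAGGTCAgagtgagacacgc
Txnrd1 (chr10:82858956-82859255, plus strand): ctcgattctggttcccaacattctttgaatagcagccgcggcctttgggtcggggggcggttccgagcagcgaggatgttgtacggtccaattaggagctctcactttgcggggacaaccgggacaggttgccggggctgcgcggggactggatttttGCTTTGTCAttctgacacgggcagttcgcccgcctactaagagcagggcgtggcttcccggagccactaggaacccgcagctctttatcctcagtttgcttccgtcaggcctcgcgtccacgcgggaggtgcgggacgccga
Gclm (chr3:122245307-122245606, plus strand): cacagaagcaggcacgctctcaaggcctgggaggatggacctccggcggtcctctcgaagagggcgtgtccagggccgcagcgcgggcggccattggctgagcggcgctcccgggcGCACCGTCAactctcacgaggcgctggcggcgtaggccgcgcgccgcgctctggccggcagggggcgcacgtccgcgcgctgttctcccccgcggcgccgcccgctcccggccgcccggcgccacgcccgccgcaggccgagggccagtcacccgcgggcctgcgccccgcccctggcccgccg
Nfe2l2 (chr2:75704614-75704913, minus strand): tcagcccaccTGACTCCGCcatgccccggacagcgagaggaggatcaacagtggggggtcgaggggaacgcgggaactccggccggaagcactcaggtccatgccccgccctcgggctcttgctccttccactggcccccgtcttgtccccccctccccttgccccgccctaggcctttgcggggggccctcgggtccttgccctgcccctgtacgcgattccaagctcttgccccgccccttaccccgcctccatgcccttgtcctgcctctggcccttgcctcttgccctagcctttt
The match in Nfe2l2, TGACTCCGC, was on the gene's strand and began at position -240, counted back from the start. The other matches were on the opposite strand: TGACGGTGC in Gclm from position -134, TGACAAAGC in Txnrd1 from position -92, and TGACCTAGC in Srxn1 from position 29, inside the transcribed part. None of the 4 matches overlapped the related AP-1 motif TGANTCA, which was present in 2565 of the 32851 windows (7.81%). The Srxn1 window held 2 AP-1 motifs elsewhere, and the other windows of the 10 genes held 0. The AP-1 motif nearer the Srxn1 start reads TGAGTCAGC with the bases after it. It differs from TGACNNNGC only by a G in place of the C, a variant that the search did not count. A match of these letters is a description of the sequence, and binding was not measured here.

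The 10 genes were not called together in any comparison. In LWT mice, 1 of the 10 genes was called after fasting, Nfe2l2, which was lower. In LKO mice, 4 rose with fasting, Keap1, Txnrd1, Srxn1 and Gsr, and the same 4 were higher in fasted LKO than in fasted LWT mice. The increases were modest, from 1.18-fold to 1.37-fold for Keap1, Txnrd1 and Gsr in these comparisons, while Srxn1 rose 2.09-fold with fasting in LKO mice and was 2.39-fold higher in fasted LKO than in fasted LWT mice. Gclc, Gclm, Nqo1, Hmox1 and Ephx1 were called in no comparison. A gene was called when its p, adjusted by Benjamini-Hochberg across the probes tested, did not exceed 0.05 in a limma fit of the 4 groups with the slide as a term. Mice were the replicates. Liver RNA comes from all cells of the tissue, so that fewer cells of a type and less RNA per cell cannot be told apart.

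These counts were set against the share of all 21495 genes called. For fasting in LWT mice, 42.0% of all genes were called (20.1% higher and 21.9% lower), against 1 of 10 here. For fasting in LKO mice the share was 41.5% (19.7% higher and 21.9% lower), close to the 4 of 10 members, all of which were higher. For genotype in fed mice, 16.7% of all genes were called (8.95% higher and 7.80% lower), against 1 member, Nfe2l2, which was lower. For genotype in fasted mice, 20.7% were called (10.1% higher and 10.7% lower), against 4 members, all higher. For the genotype difference in the fasting response, 8.13% were called (4.23% higher and 3.90% lower), against 4 members, Nfe2l2, Txnrd1, Srxn1 and Gsr, whose fasted minus fed value was higher in LKO than in LWT mice. With a fold change over 1.5 required as well, Srxn1 was the one member left in the LKO fasting, fasted genotype and response comparisons, and no member was left in the other 2. The matching shares of all genes were 10% (2155 of 21495) for fasting in LWT mice, 12.7% for fasting in LKO mice, 3.84% and 4.04% for genotype in fed and in fasted mice, and 3.12% for the difference in response. The median log2 difference of the 10 genes in that order was -0.14, 0.22, -0.05, 0.18 and 0.37, against -0.01, -0.02, -0.01, -0.004 and -0.002 over all genes. No test was made of the list as a whole. How many of all genes have groups that do not overlap was not counted, so the separations of groups given below have no such share beside them.

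**Figure D1:**
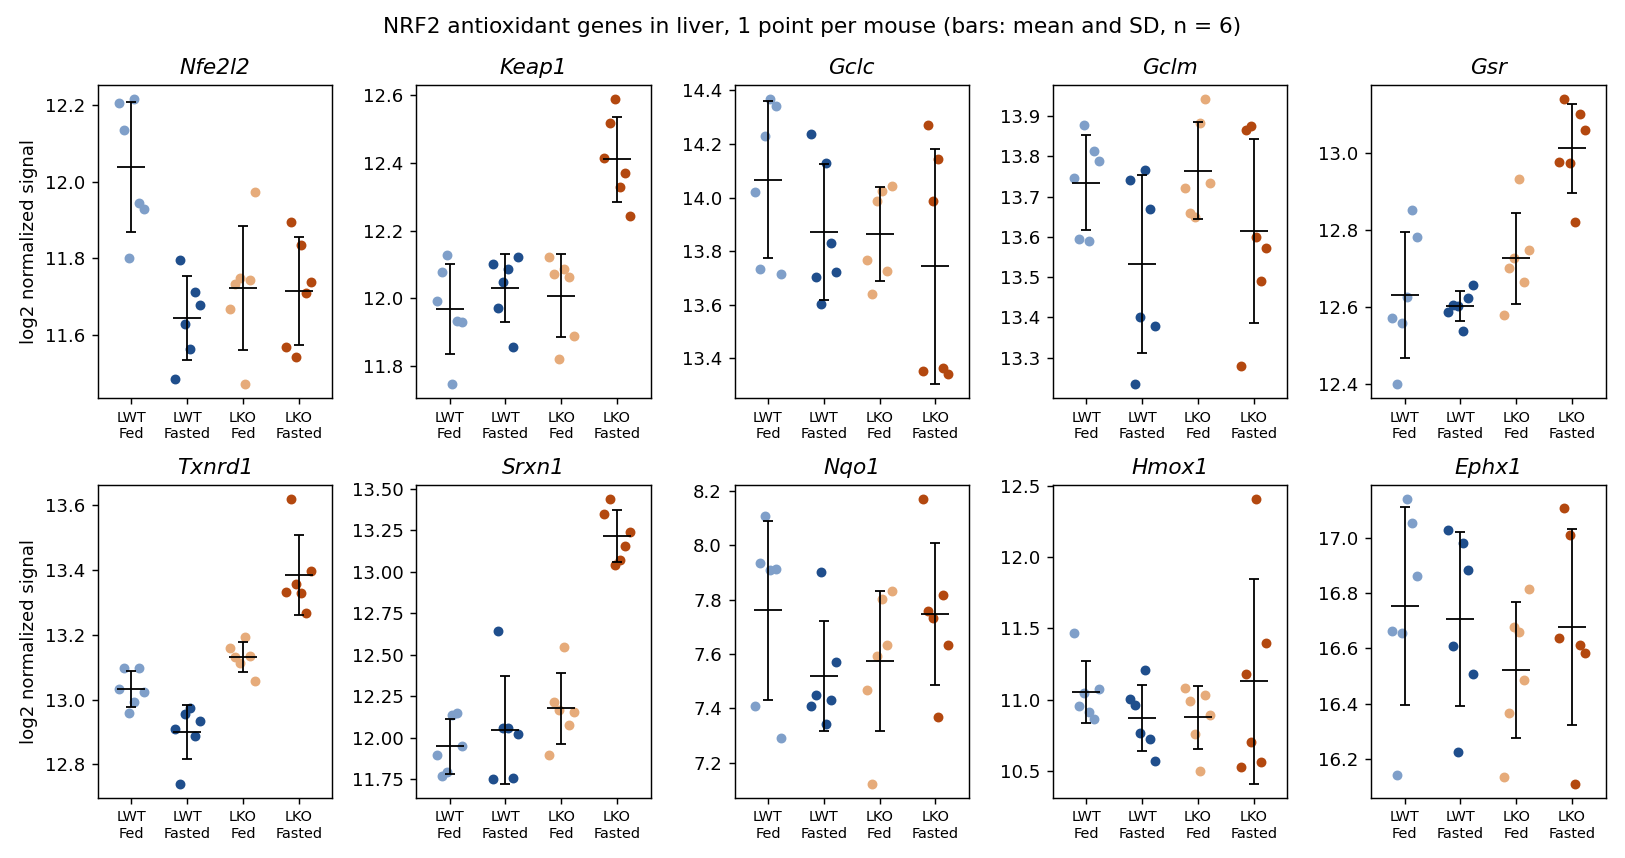
Log2 normalized signal (vertical axis, own scale in each panel) of the 10 NRF2 antioxidant genes in each of 24 mice, by group, with the group mean and SD (n = 6). The 6 LKO_Fasted mice lie above all other mice for Srxn1, Txnrd1 and Keap1, and the groups of Gclc, Gclm, Nqo1, Hmox1 and Ephx1 overlap. The share of all genes separated in this way was not counted.

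Nfe2l2 was lower in fasted than in fed LWT mice, and lower in fed LKO than in fed LWT mice. Its main probe (mm9 chr2:75513771-75513830) ran from 11.80 to 12.21 with a median of 12.04 in LWT_Fed mice on the log2 scale of normalized signal, and from 11.49 to 11.80 with a median of 11.65 in LWT_Fasted mice. These groups did not overlap, although the highest fasted and lowest fed values were close. In LKO_Fed mice it ran from 11.47 to 11.97 (median 11.74), and in LKO_Fasted mice from 11.54 to 11.89 (median 11.72). By median, fed LWT mice stood above the other 3 groups, which overlapped one another. The log2 difference was -0.44 ± 0.08 (SE) for fasting in LWT mice, with an adjusted p of 0.000139 in limma. It was -0.37 ± 0.08 for LKO against LWT in fed mice (adjusted p = 0.0045). In LKO mice the fasting difference was -0.02 ± 0.09 (adjusted p = 0.873, 95% interval -0.21 to 0.17). The difference between the 2 fasting responses was 0.42 ± 0.12 with an adjusted p of 0.0376, a call lost in 11 of 24 fits that left out 1 array each, with no array weights (adjusted p = 0.0642) and with no filter on dim probes (0.0709). Within slides the fed genotype difference was -0.02 on slide 1 and -0.46 on both others.

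The second Nfe2l2 probe (mm9 chr2:75529291-75529350), which the array design assigns to another transcript of the gene, gave a different picture of fasting. It ran from 8.67 to 9.36 in LWT_Fed mice, 8.91 to 9.28 in LWT_Fasted mice, 8.32 to 8.99 in LKO_Fed mice and 8.77 to 9.37 in LKO_Fasted mice. Its fasting difference in LWT mice was -0.02 (adjusted p = 0.919), and in LKO mice it was 0.46 ± 0.12 (adjusted p = 0.0036), where the main probe gave -0.02 ± 0.09. In fed mice both probes were lower in LKO than in LWT, the second by -0.36 ± 0.11 (adjusted p = 0.0273). The difference in fasting response was 0.47 ± 0.16 on the second probe (adjusted p = 0.0723) and 0.42 on the main probe. The 2 probes thus differ on where fasting moved Nfe2l2, and share the lower value in fed LKO mice.

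Keap1, the gene of the inhibitor, rose with fasting in LKO mice. Its probe (mm9 chr9:21035292-21035732, a span longer than the probe) ran from 11.75 to 12.13 with a median of 11.96 in LWT_Fed mice, and from 11.86 to 12.12 with a median of 12.07 in LWT_Fasted mice. It ran from 11.82 to 12.12 (median 12.07) in LKO_Fed mice and from 12.24 to 12.59 (median 12.39) in LKO_Fasted mice. Each fasted LKO mouse was above each mouse of the other 3 groups, which overlapped. The log2 difference was 0.41 ± 0.07 for fasting in LKO mice (adjusted p = 6.97e-05) and 0.37 ± 0.07 for genotype in fasted mice (adjusted p = 0.000607). In LWT mice fasting moved it by 0.11 ± 0.06 (adjusted p = 0.183). The difference between these responses, 0.30 ± 0.10, had an adjusted p of 0.0546, which just missed the threshold and passed it in 12 of 38 alternative fits.

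Glutathione is made in 2 steps, and glutamate-cysteine ligase, with its catalytic subunit from Gclc and its modifier subunit from Gclm, catalyses the first. Neither gene was called in any comparison. Gclc (mm9 chr9:77641296-77641355) ran from 13.71 to 14.37 (median 14.12) in LWT_Fed mice, 13.60 to 14.24 (median 13.78) in LWT_Fasted mice, 13.64 to 14.04 (median 13.88) in LKO_Fed mice and 13.34 to 14.27 (median 13.67) in LKO_Fasted mice. The fasted LKO mice were widely spread for this gene: replicates 1, 5 and 6 lay between 13.34 and 13.36, and replicates 2, 3 and 4 between 13.99 and 14.27. The log2 difference for genotype in fasted mice was -0.15, with a 95% interval of -0.51 to 0.21, wide enough to hold differences in both directions. Gclm (mm9 chr3:121967737-121967796) ran from 13.59 to 13.88 (median 13.77) in LWT_Fed mice, 13.24 to 13.77 (median 13.54) in LWT_Fasted mice, 13.65 to 13.94 (median 13.73) in LKO_Fed mice and 13.28 to 13.88 (median 13.59) in LKO_Fasted mice. All 4 groups overlapped. Its fasting difference was -0.16 in LWT mice (95% interval -0.37 to 0.04) and -0.13 in LKO mice (-0.36 to 0.10). Without LWT_Fasted replicate 4 the LWT difference was -0.25 (adjusted p = 0.0473).

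The other members that rose in fasted LKO mice were Srxn1, Txnrd1 and Gsr. Srxn1 encodes sulfiredoxin, which repairs overoxidised peroxiredoxins. Its probe (mm9 chr2:151937009-151937068) ran from 11.77 to 12.15 (median 11.92) in LWT_Fed mice, 11.75 to 12.65 (median 12.04) in LWT_Fasted mice and 11.89 to 12.55 (median 12.16) in LKO_Fed mice. In LKO_Fasted mice it ran from 13.04 to 13.44 (median 13.20), so that the lowest fasted LKO mouse was above the highest mouse of any other group. The log2 difference was 1.06 ± 0.11 for fasting in LKO mice (adjusted p = 5.85e-08) and 1.26 ± 0.11 for genotype in fasted mice (adjusted p = 8.63e-08). In LWT mice the fitted fasting difference was -0.01 (95% interval -0.22 to 0.19), and the unweighted difference of group means was 0.10. The response in LKO mice exceeded that in LWT mice by 1.08 ± 0.15 (adjusted p = 0.000139), and by 0.71 to 1.07 within the 3 slides. In fed mice the genotype difference was 0.18 (95% interval -0.03 to 0.38, adjusted p = 0.245).

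Txnrd1 encodes the cytosolic thioredoxin reductase, which uses NADPH to reduce thioredoxin. Its main probe (mm9 chr10:82360230-82360289) ran from 12.96 to 13.10 (median 13.03) in LWT_Fed mice, 12.74 to 12.97 (median 12.92) in LWT_Fasted mice, 13.06 to 13.19 (median 13.13) in LKO_Fed mice and 13.27 to 13.62 (median 13.35) in LKO_Fasted mice. Fasted LKO mice lay above all others, and LWT_Fed and LWT_Fasted values overlapped. The log2 difference was 0.24 ± 0.06 for fasting in LKO mice (adjusted p = 0.00131) and 0.46 ± 0.06 for genotype in fasted mice (adjusted p = 7.23e-06). In LWT mice the fasting difference was -0.12 ± 0.05, which missed the threshold at an adjusted p of 0.0537 and passed it in 11 of the 40 alternative fits. The difference between the responses was 0.37 ± 0.08 (adjusted p = 0.00482). A second Txnrd1 probe (mm9 chr10:82338379-82338438) had a genotype difference of 0.52 ± 0.13 in fasted mice (adjusted p = 0.00632), while its fasting difference in LKO mice, 0.33 ± 0.13, had an adjusted p of 0.0515. On this probe the difference between the responses was 0.44 ± 0.18 and was not called (adjusted p = 0.134), with 0.07 to 0.75 within the 3 slides.

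Gsr encodes glutathione reductase, which returns oxidised glutathione to its reduced form with NADPH. Its probe (mm9 chr8:34808488-34808547) ran from 12.40 to 12.85 (median 12.60) in LWT_Fed mice, 12.54 to 12.66 (median 12.60) in LWT_Fasted mice, 12.58 to 12.93 (median 12.72) in LKO_Fed mice and 12.82 to 13.14 (median 13.02) in LKO_Fasted mice. Fasted LKO mice were all above fasted LWT mice, but overlapped fed LKO mice. The log2 difference was 0.32 ± 0.07 for fasting in LKO mice (adjusted p = 0.00123) and 0.45 ± 0.07 for genotype in fasted mice (adjusted p = 0.000164). In LWT mice fasting moved it by -0.06 (95% interval -0.19 to 0.08). The difference between the responses was 0.38 ± 0.10 (adjusted p = 0.0222), and it was 0.32 with an adjusted p of 0.0748 without LWT_Fed replicate 5. That call was also lost with no array weights (adjusted p = 0.0611) and with no filter on dim probes (0.0622).

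**Figure D2:**
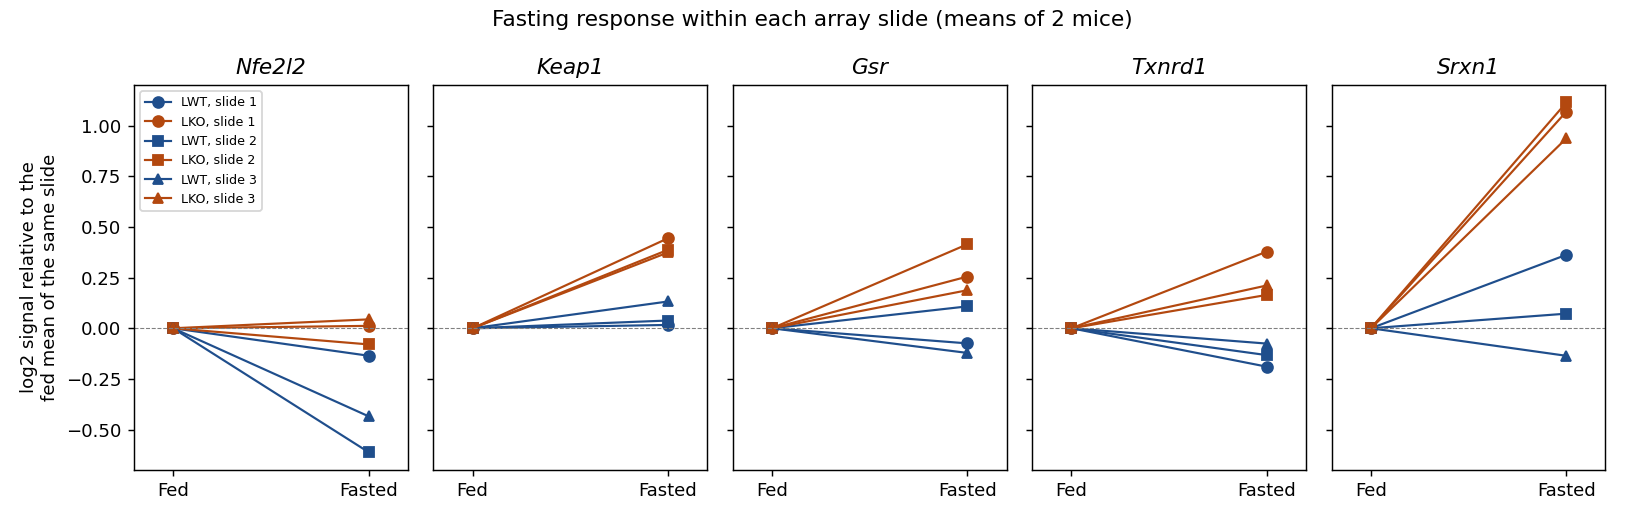
Fasting response of 5 genes within each of the 3 array slides, as the mean log2 signal of the 2 fasted mice of a genotype minus that of the 2 fed mice on the same slide (vertical axis), with LWT in blue and LKO in orange. For Srxn1 the LKO lines end between 0.94 and 1.12 and the LWT lines between -0.14 and 0.36.

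The remaining 3 members act on quinones, heme and epoxides, and none was called. Nqo1 encodes the quinone reductase often taken as the standard NRF2 target. Its probe (mm9 chr8:109912440-109912499) ran from 7.29 to 8.11 (median 7.91) in LWT_Fed mice, 7.34 to 7.90 (median 7.44) in LWT_Fasted mice, 7.12 to 7.83 (median 7.61) in LKO_Fed mice and 7.37 to 8.17 (median 7.75) in LKO_Fasted mice, with all groups overlapping. Its log2 difference for genotype in fasted mice was 0.26 (95% interval -0.07 to 0.59), and the difference between the responses was 0.39 (-0.06 to 0.84). These intervals include both no difference and differences as large as those of Gsr and Txnrd1. Ephx1 encodes microsomal epoxide hydrolase (mm9 chr1:182919689-182919748). It ran from 16.14 to 17.14 in LWT_Fed mice, 16.23 to 17.03 in LWT_Fasted mice, 16.14 to 16.81 in LKO_Fed mice and 16.11 to 17.11 in LKO_Fasted mice, which again overlapped. Its fasting difference was 0.26 in LKO mice (95% interval -0.10 to 0.63) and -0.12 in LWT mice (-0.44 to 0.21).

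Hmox1 encodes heme oxygenase 1, which breaks down heme and in liver is also made by the resident macrophages, the Kupffer cells. Its probe (mm9 chr8:77624406-77624466) ran from 10.87 to 11.46 (median 11.00) in LWT_Fed mice, 10.57 to 11.21 (median 10.86) in LWT_Fasted mice and 10.50 to 11.08 (median 10.94) in LKO_Fed mice. In LKO_Fasted mice it ran from 10.52 to 12.41 (median 10.94), with replicate 4 the highest and replicate 6 next at 11.40. The log2 difference for genotype in fasted mice was 0.10 (95% interval -0.32 to 0.53). The summed level of 8 Kupffer cell markers was also most widely spread in LKO_Fasted mice, from 14.3 to 16.4 on the log2 scale, against 14.4 to 15.7 in LWT_Fasted, 14.8 to 15.5 in LKO_Fed and 15.1 to 15.6 in LWT_Fed mice. Its part in the Hmox1 values was not tested.

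**Figure D3:**
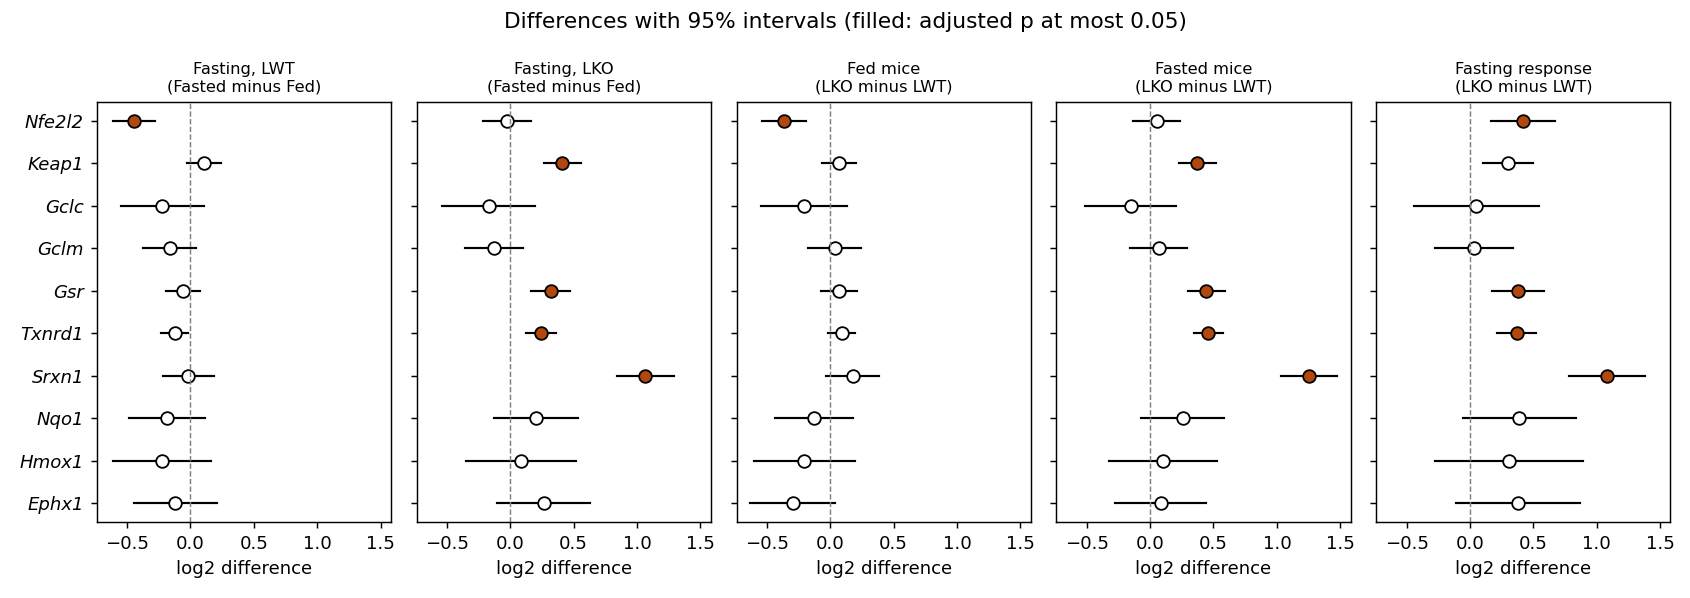
Log2 difference (horizontal axis) of the 10 genes in the 5 comparisons, with 95% intervals from the limma fit; filled points passed an adjusted p of 0.05. In fasted mice the 4 filled points, Keap1, Gsr, Txnrd1 and Srxn1, lie to the right of 0, with Srxn1 at 1.26.

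Over the 24 arrays the 4 genes that rose varied together, a value that holds their group differences. Pearson's r was 0.87 between Srxn1 and Gsr, 0.79 between Txnrd1 and Gsr, 0.77 between Txnrd1 and Srxn1, 0.74 for Keap1 with Srxn1 and with Txnrd1, and 0.62 between Keap1 and Gsr. After each group's mean was removed, r was 0.52 for Srxn1 with Gsr, 0.21 for Txnrd1 with Gsr, -0.02 for Txnrd1 with Srxn1, 0.36 for Keap1 with Txnrd1, and -0.18 for Keap1 with Srxn1 and with Gsr. Gclc and Gclm, whose proteins form 1 enzyme, had r = 0.56 over the arrays and 0.59 within groups. Among 13312 named genes the most like Srxn1 over the 24 arrays were Cdc42ep5 (r = 0.93) and Ppfibp2 (r = 0.92). The most like Gsr were Srxn1 itself and Ipo4 (r = 0.86), those most like Txnrd1 were Fubp1 (r = 0.89) and St3gal1 (r = 0.85), and those most like Keap1 were Sel1l3 and Zcchc3 (both r = 0.85). For Nfe2l2 they were Tbc1d31 (r = 0.82) and Selenot (r = 0.80). For Gclc they were Aplp2 (r = 0.78) and Tmprss6 (r = 0.76), and for Gclm Nectin3 (r = 0.81) and Bcr (r = 0.80). For Hmox1 they were Sox10 (r = 0.84) and Spink1 (r = 0.79), for Ephx1 Cpeb1 (r = 0.82) and Aox1 (r = 0.78), and for Nqo1 Fancc (r = 0.71) and Rasl2-9 (r = 0.63). These values describe arrays that share group and slide, and carry no test.

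Of 11 genes of NRF2 partners and regulators tested, 5 rose and 3 fell with fasting in LWT mice, where 42.0% of all genes were called. In LKO mice 5 rose and 2 fell, against 41.5% of all genes. Bach1 and Crebbp were called in neither comparison, Mafk was not called in LWT mice, and Mafg and Bach2 were not called in LKO mice. In LWT mice the largest increases were Nfe2l1, which encodes the related factor NRF1, at 0.62 on the log2 scale, and Maff, a small MAF partner, at 0.57. The largest decreases were Bach2, a repressor of the same elements, at -0.64 and Dpp3, whose protein binds KEAP1, at -0.39. In LKO mice they were Sqstm1, which encodes p62, an adaptor that sequesters KEAP1 for autophagy, at 0.999 and Maff at 0.99, against Dpp3 at -0.25 and Rbx1, the RING subunit of the CUL3 ligase, at -0.21. In fasted mice, where 20.7% of all genes were called, 2 of the 11 were higher in LKO than in LWT, Maff by 0.82 (adjusted p = 0.0108) and Sqstm1 by 0.54 (adjusted p = 1.33e-05). Sqstm1 was also the 1 of 11 with a different fasting response, larger in LKO mice by 0.54 (adjusted p = 0.00138), a count near the 8.13% of all genes. In fed mice 2 of 11 were called, near the 16.7% of all genes: the coactivator gene Crebbp was higher in LKO by 0.62 and Nfe2l1 was lower at -0.26.

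Among 23 other known NRF2 targets tested of 25 listed, 4 rose and 10 fell with fasting in LWT mice, and 3 rose and 8 fell in LKO mice. With 42.0% and 41.5% of all genes called in these comparisons, the 11 of 23 in LKO mice are near the share of all genes. In LWT mice Abcc3, an exporter of conjugates, rose by 0.78 and Adh7, an alcohol dehydrogenase, by 0.45, while Ptgr1, a prostaglandin reductase, was at -1.05 and Osgin1 at -0.78. In LKO mice Adh7 rose by 1.47 and Entpd5, a nucleotidase of the endoplasmic reticulum, by 0.95, while Ptgr1 was at -1.19 and the glutathione transferase gene Gsta4 at -1.10. In fasted mice 3 were higher and 1 lower in LKO, 4 of 23 beside 20.7% of all genes, led by Adh7 at 1.003 and Htatip2 at 0.53, with Ptgr1 at -0.23. For the difference in response 3 of 23 were called, beside 8.13% of all genes (4.23% higher), all with a higher fasted minus fed value in LKO mice, led by Adh7 at 1.02 and Entpd5 at 0.63. In fed mice 1 of 23 was called, beside 16.7% of all genes, the carbonyl reductase gene Cbr3 at -0.38. The list's median for genotype in fasted mice was -0.06, against 0.18 for the 10 genes and -0.004 over all genes.

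Most genes listed for the supply of NADPH, which the proteins of Gsr and Txnrd1 consume, had less mRNA after fasting. Tkt and Taldo1 in this list belong to the pentose phosphate pathway, but their proteins do not make NADPH themselves. All 6 tested fell in LWT mice, where 42.0% of all genes were called, led by Me1, which encodes malic enzyme, at -1.64 and Pgd, of the pentose phosphate pathway, at -1.41. In LKO mice 5 of 6 fell, beside 41.5% of all genes called, led by Pgd at -0.96 and Tkt, which encodes transketolase, at -0.77. Me1 was not called there by limma, at -0.33 (adjusted p = 0.129). In fed mice 5 were lower in LKO than in LWT, beside 16.7% of all genes called, led by Me1 at -1.61 and G6pdx, which encodes glucose-6-phosphate dehydrogenase, at -0.84. In fasted mice limma called 0 of the 6, beside 20.7% of all genes, with 2 at an unadjusted p under 0.05 and values from -0.30 to -0.06. Me1 was the 1 of 6 with a different response, by 1.31 (adjusted p = 0.00121), beside 8.13% of all genes. Of 20 other antioxidant enzymes, 3 rose and 5 fell with fasting in LWT mice, and 3 rose and 8 fell in LKO mice. These are 8 of 20 beside 42.0% of all genes in LWT mice, and 11 of 20 beside 41.5% in LKO mice. Oplah, which encodes 5-oxoprolinase, rose by 1.03 and 1.31 in these 2 comparisons, and Glrx, which encodes glutaredoxin, by 0.64 and 0.93. Ggct, of the glutathione degradation cycle, fell in both, with values of -0.64 and -0.53, and the next in order were the peroxiredoxin genes Prdx3 in LWT mice at -0.37 and Prdx4 in LKO mice at -0.39. In fed mice Cat, which encodes catalase, and Prdx5 were lower in LKO, at -0.28 and -0.18, among 3 of 20 called, near the 16.7% of all genes. In fasted mice 4 of 20 were called, near the 20.7% of all genes: 2 were higher in LKO, Oplah by 0.37 and the glutathione synthetase gene Gss by 0.25, and 2 were lower, Cat at -0.50 and Prdx5 at -0.37. Gpx4 was the 1 of 20 whose response differed, by 0.25 (adjusted p = 0.0409), beside 8.13% of all genes.

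**Figure D4:**
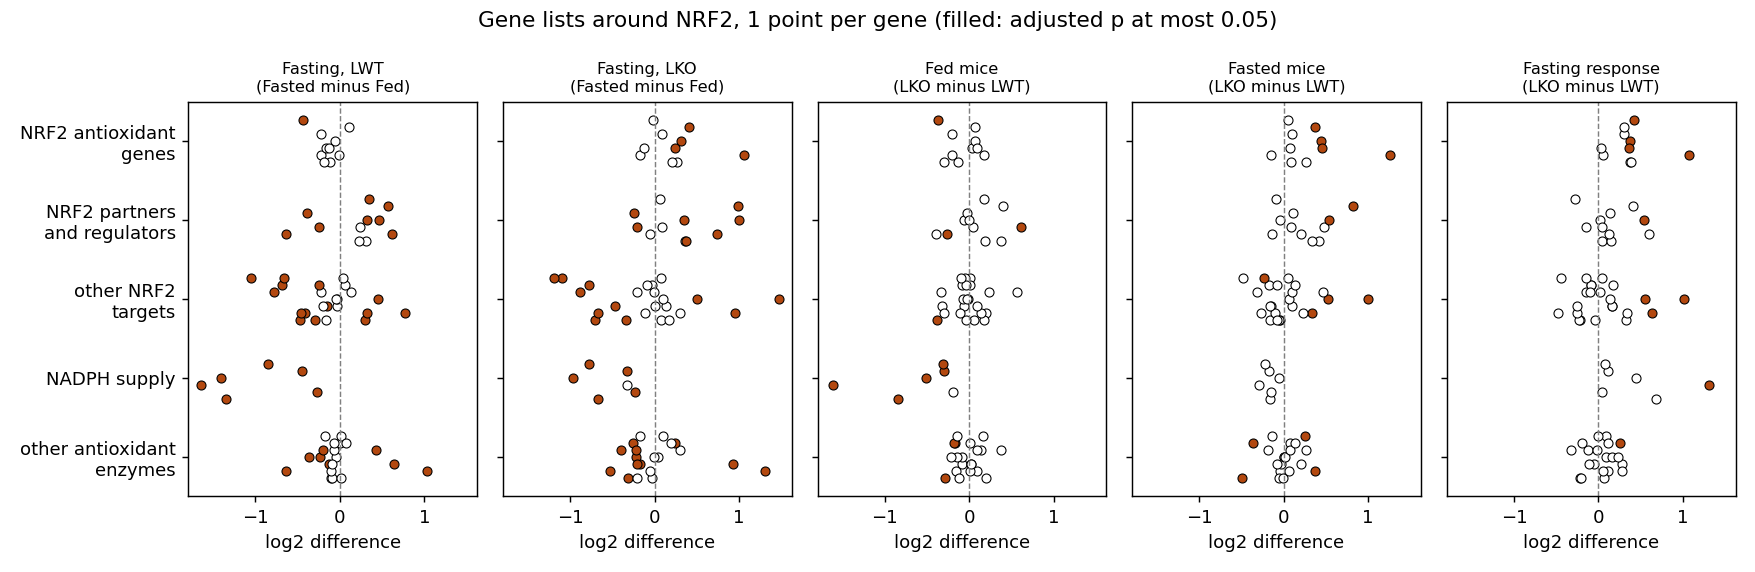
Log2 difference (horizontal axis) of each tested gene in 5 lists around NRF2, by comparison, with filled points for an adjusted p of at most 0.05 in limma. In fasted mice the NRF2 antioxidant genes hold 4 filled points to the right of 0, and the NADPH supply list holds 0 filled points.

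Markers of other liver cells were read beside these results. In fasted mice, where 20.7% of all genes were called (10.7% lower), 2 of 5 bile duct markers were lower in LKO than in LWT mice, Epcam at -0.42 and Spp1, which other liver cells also express, at -2.11. The other 3, Krt19, Krt7 and Sox9, were not called, at -0.48, -0.15 and -0.16. In fed mice 3 of the 5 were called, all lower in LKO, beside 16.7% of all genes, and the 5 values ran from -1.50 to -0.18. The summed level of the 5 was 8.99 to 10.2 in LKO_Fasted and 10.8 to 11.1 in LWT_Fasted mice, and in fed mice 9.61 to 10.8 against 11.0 to 11.7. Spp1 had the highest signal of the 5 probes and so weighs most in that sum. Of 4 erythroid markers tested, 1 was called, Alas2, which was lower in LKO mice in both states, at -0.80 fed and -0.83 fasted. The other 3 were not called, and in fasted mice stood at 0.51 (Hba-a1), 0.39 (Hbb-b1) and 0.16 (Slc4a1). Among 8 Kupffer cell markers limma called 0 in fasted mice by genotype, with 1 at an unadjusted p under 0.05. For the difference in response limma called 0 of these 8, beside 8.13% of all genes, and 0 were at an unadjusted p under 0.05. All 8 values lay above 0, however, from 0.16 to 1.17 with a median of 0.41, beside a median of 0.37 for the 10 NRF2 genes. The median of the Kupffer cell markers for fasting in LWT mice was -0.44, with 1 of 8 called (Cd68, which was lower) beside 42.0% of all genes. In LKO mice it was -0.03, with 0 of 8 called and 0 at an unadjusted p under 0.05, beside 41.5% of all genes. Of 7 hepatocyte markers, 2 were lower in fasted LKO than in fasted LWT mice, Ttr at -0.41 (adjusted p = 1.87e-05) and Hnf4a at -0.24 (adjusted p = 0.0269), while Alb stood at -0.01. Their summed level was 20.7 to 20.8 in LKO_Fasted and 20.8 to 20.9 in LWT_Fasted mice. Of endothelial and stellate cell markers, 0 of 6 each were called by genotype in fasted mice. In fed mice 1 of 6 endothelial markers was lower in LKO, and 0 of 6 stellate cell markers were called. With fasting in LKO mice, where 41.5% of all genes were called, 1 of 6 endothelial markers rose. There 1 rose and 2 fell of 6 stellate cell markers, and 1 rose and 2 fell of 5 bile duct markers. Whether these cell types had a part in the differences of Keap1, Txnrd1, Srxn1 and Gsr was not tested.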

How the data were processed

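The authors measured RNA from 24 livers, labelled with Cy3, on 1-colour Agilent mouse arrays (8 arrays on each of 3 slides, 2 of each group per slide), and the deposited scanner files hold spot intensity from Agilent Feature Extraction 10.10.1.1 (submitters' processing notes). The authors' deposited log2 values, filtered, corrected for washing bath and quantile normalized per the paper's methods, served as an alternative. Here the median spot intensity was log2 transformed. Probes well above background on at least 5 of 6 arrays of a group were kept (32197 of 56605), and values were quantile normalized with limma 3.58.1 in R 4.3.3. Control spots were left out, and 90 missing values were left missing. The washing bath is not in the labels used here, so the slide was a term in its place. Groups, array weights (arrayWeights) and slide entered lmFit and eBayes, and the 5 comparisons were adjusted by Benjamini-Hochberg over all kept probes. Log2 normalized signal is not comparable between probes. The number of arrays limits the precision. One probe per gene was used, the brightest. Gene symbols and promoters came from RefSeq GRCm38.p6, probe positions from the files (mm9), where exon or UTR was not annotated here.

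The 10 genes and all lists were chosen with earlier results of these data known. By rule the 10 genes were named throughout, with their 2 most alike genes each, and up to 2 called increases and 2 called decreases per other list and comparison. Alternatives were the signal, background correction, normalization, filter, weights, slide and replicate terms, call rule, second probes and each array left out.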

Additional observations from a re-analysis of the deposited data

Results flagged for a closer look

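Within the groups of 6, the highest or lowest mouse lay far from the rest in 4 of the 40 groups tested by Dixon's ratio at its 95% critical value, and chance alone gives about 5% of groups. The values were Hmox1 at 11.46 in LWT_Fed replicate 1, Srxn1 at 12.65 in LWT_Fasted replicate 2, and Txnrd1 at 12.74 in LWT_Fasted replicate 2 and at 13.62 in LKO_Fasted replicate 2. Without LWT_Fasted replicate 2 the calls of Srxn1 and Txnrd1 in fasted mice were kept.

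The fasting response was called different between LKO and LWT mice, by the interaction term of the limma fit, for Srxn1 (1.08 on the log2 scale), Nfe2l2 (0.42), Gsr (0.38) and Txnrd1 (0.37). The calls of Nfe2l2 and Gsr were lost in some alternative fits, and those of Nfe2l2 and Txnrd1 were not made on their second probes. The adjusted p-values are given with each gene.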

How the results depend on the processing

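The 3 calls of Srxn1 (LKO fasting, fasted genotype and response) were made in each alternative run. The fasted genotype calls of Keap1, Txnrd1 and Gsr were made in each one but the rule with a fold over 1.5 and, for Keap1 and Gsr, treat. Fasting in LWT mice had 2 members called, Nfe2l2 and Txnrd1, in place of 1 with the processed signal, the authors' log2 values, median centring, the filter for all 24 arrays, no slide term, the slide as a random block and, chosen after seeing the data, without LKO_Fasted replicates 1 and 2. It had 0 with the second probes, and 1 to 3 when single arrays were left out (3 without LWT_Fasted replicate 4). With no filter on dim probes the difference in response had 915 genes and 2 members called, in place of 1748 and 4: Nfe2l2 (adjusted p = 0.0709) and Gsr (0.0622) were lost, as they were with no array weights (0.0642 and 0.0611). The cause was not tested. The second probes gave 2 members there, and Nfe2l2 was called higher for fasting in LKO mice, at 0.46 where the main probe gave -0.02 and no call. With only the groups compared, genotype in fasted mice had 2863 genes called in place of 4459. That alternative could not be applied to the difference in response, which needs all groups. In the order LWT fasting, LKO fasting, fed genotype, fasted genotype and response, the rule with a fold over 1.5 called 2155, 2735, 825, 869 and 671 genes and 0, 1, 0, 1 and 1 members. In that order, treat against a fold of 1.2 called 2550, 2926, 386, 501 and 167 genes and 0, 1, 0, 2 and 1 members. Both rules are stricter by construction.

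When each array was left out in turn, fed genotype calls ranged from 2346 (without LWT_Fed replicate 5) to 3696 genes, and response calls from 962 (without LWT_Fed replicate 5) to 2256 genes with 3 to 5 members. The replicate block changed no call of the 50 member values: with it, Srxn1 was 1.28 higher in fasted LKO than in fasted LWT mice. The labels do not say that the replicate numbers pair the mice, and the arrays showed no sign of it. Same-numbered mice of different groups deviated with a mean correlation of -0.0208 over 36 pairs, and other mice with 0.00408 over 180. Keap1's difference in response, not called, passed in 12 of 38 alternatives: 5 single arrays left out, and 7 others with adjusted p from 0.012 (median centring) to 0.0455 (processed signal), among them the authors' log2 values, the filter for all 24 arrays, no array weights, no slide term and the slide as a random block.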
